A study of Homo sapiens with 3 samples.

Results

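Gene expression in UM-UC-3 cells given si-WDR5-3, an siRNA against WDR5, was compared with that in the same cells given control siRNA. UM-UC-3 is a human bladder cancer cell line, and both siRNAs were given at 75 nM with Lipofectamine RNAimax, with RNA taken at 48 h. The comparison used 2 of the 3 Affymetrix PrimeView arrays of the study, 1 for each condition. Of 49293 probe sets on each array, the 45064 that carry 1 gene symbol were its members. The third array held RNA from si-WDR5-2, a second siRNA against WDR5 at the same dose and time, and it was measured against the same control array. No condition was repeated, the effects are those of transient transfection in 1 cell line, and no test could be made for a gene: differences are given as ratios and counts.

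WDR5 is a WD-repeat protein that joins MLL and SET1 methyltransferases with RBBP5 and ASH2L. These complexes place methyl groups on lysine 4 of histone H3 at active genes. WDR5 also belongs to the NSL acetyltransferase complex, and it is known to bind near many ribosomal protein genes in other human cells. An siRNA lowers its target mRNA through full pairing, and it can also lower other mRNAs that pair with the seed, bases 2 to 8 of the strand that guides cleavage.

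The sequences of the 3 siRNAs are shown because the arrays differ in them alone, according to the labels. The sense strand is printed first as the labels list it, with its 2-base overhang, and then its complement, in which the capitals mark bases 2 to 8. The labels number the site of si-WDR5-3 in WDR5 as 585 and that of si-WDR5-2 as 999. From which base they count was not checked.
si-WDR5-3, listed strand: cccaguccaaccuuauugutt
si-WDR5-3, complement: aCAAUAAGguuggacuggg
si-WDR5-2, listed strand: gcucagaggauaaccuugutt
si-WDR5-2, complement: aCAAGGUUauccucugagc
control siRNA, listed strand: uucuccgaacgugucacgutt
control siRNA, complement: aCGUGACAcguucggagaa
The seeds of the 3 complements differ from each other, and 0 of 2545 mature human miRNA entries of RefSeq carry any of them at bases 2 to 8. Whether transcripts that were lower with si-WDR5-3 pair with its seed was not tested.

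The 2 arrays were close to each other in scale, with a median intensity of 151.2 on both and a lowest value of 46.8 with control siRNA and 46.2 with si-WDR5-3. Gene values rest on probe sets whose mean over the 3 arrays reached 152, the median of all, which left 22696 probe sets and 11501 genes. A probe set dimmer than that with control siRNA could pass through siRNA arrays where it was higher. Each gene was given the median log2 ratio of its probe sets. The SD over probe sets, with a median of 0.07 among 5823 genes with several, measures the probes and not the cells. Vimentin was the brightest marker of the line, at 10126 and 9386. KRT18 was at 1968 with control siRNA, while CDH1 (103.9) and EPCAM (63.0) stayed below the filter, as did the leukocyte marker PTPRC (63.9). Of 20 urothelial and bladder line markers 12 passed the filter, and the summed intensity of all 20 was 14989 with control siRNA and 14570 with si-WDR5-3. Of 15 leukocyte and endothelial markers 7 passed it, and the sums over all 15 were 2486 and 2431.

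On the scale of the deposited values, most genes were near their control level with si-WDR5-3: 9764 genes (84.9%) were within 0.32 on the log2 scale. How these values were normalized is not given, so a shift shared by all transcripts could not be seen. A gene was called higher at a ratio of at least 1.5 and lower at 0.667 or less. By this limit 269 of 11501 genes (2.34%) were higher and 181 (1.57%) were lower. At a limit of 2-fold the counts were 37 (0.322%) and 36 (0.313%). The median log2 ratio of all genes was −0.00 and their SD was 0.26. The lower genes were brighter in control cells, with a median intensity of 578, than the higher genes (277), and all genes had a median of 293. Control intensity is the denominator of each ratio, so this contrast depends in part on how the groups were called. Bright probe sets spread more than dim ones: the SD of the log2 ratios was 0.19 among the 5674 dimmest probe sets used and 0.32 among the 5674 brightest. Among genes with several probe sets, every one of them was past the limit for 71 of 142 higher genes and 47 of 93 lower genes.

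**Figure D1:**
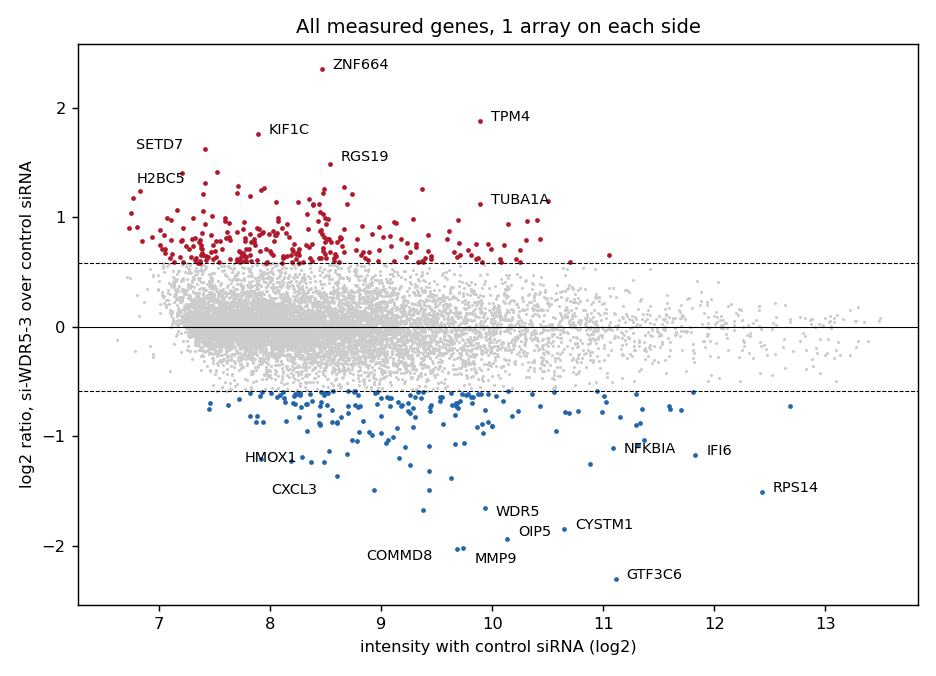
Log2 ratio of si-WDR5-3 over control siRNA (vertical axis) against the log2 intensity with control siRNA (horizontal axis) for 11501 genes, each the median of its probe sets. The dashed lines are the 1.5-fold limits, with 269 higher genes in red and 181 lower genes in blue. The lower genes reach further into the bright range, and RPS14 lies far to the right.

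The target itself was lower. The intensities of WDR5 were 1013 and 947 with control siRNA and 315 and 306 with si-WDR5-3 on its 2 probe sets. These are ratios of 0.311 and 0.323. A further probe set shared by WDR5 and its pseudogene WDR5CP went from 406.7 to 109.9 (ratio 0.270). The partners of WDR5 stayed within the limit. Of 18 measured genes of the MLL and SET1 complexes, WDR5 was the only one past the limit, with a list median of −0.01 on the log2 scale. Of 8 genes of the NSL complex none was past it: MCRS1, a scaffold of this complex, had the highest ratio, 1.245, and OGT, the O-GlcNAc transferase, was at 1.06.

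The deepest decreases were in genes of widely different function. GTF3C6, a subunit of the factor that recruits RNA polymerase III to tRNA genes, was at 2211 with control siRNA and 448 with si-WDR5-3 on 1 probe set. Its ratio of 0.203 was the lowest of all genes, below that of WDR5. COMMD8, which belongs to a family of copper metabolism domain proteins in endosomal sorting, was at 820.4 with control siRNA and 202 with si-WDR5-3 (0.246). MMP9, a gelatinase that degrades basement membrane, went from 855 to 211 (0.246). OIP5, needed for loading the centromeric histone CENP-A, went from 1124 to 293 (0.261). EMC2, a subunit of the membrane insertase of the endoplasmic reticulum, was at 667 with control siRNA and 209 with si-WDR5-3 (0.314). All of these have 1 probe set past the filter, so the probes give no second reading.

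Among genes read by several probe sets, CYSTM1, a small cysteine-rich membrane protein, was the lowest. Its 2 probe sets stood at 2511 and 1024 with control siRNA and at 681 and 294 with si-WDR5-3, ratios of 0.271 and 0.287. RPIA, an isomerase of the pentose phosphate pathway, was at 700.1 and 683 with control siRNA and 270.1 and 226 with si-WDR5-3 (0.386 and 0.331). LSM10, a protein of the U7 particle that trims histone mRNAs, was at 1020.5 and 469 with control siRNA and 416 and 185 with si-WDR5-3 (0.407 and 0.395). In each of these genes every probe set was below the limit. HMOX1, the heme oxygenase of the oxidative stress response, was at 1026, 306 and 359 with control siRNA and 269.9, 141 and 153 with si-WDR5-3, with ratios of 0.263, 0.459 and 0.427. The 4 probe sets of ATP6V1C1, a subunit of the proton pump of lysosomes, lay between 0.459 and 0.481. PUDP, a pseudouridine phosphatase, was at 0.427 over 2 probe sets, SLC35G2 at 0.476 and the nucleoporin NUP58 at 0.490.

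**Figure D2:**
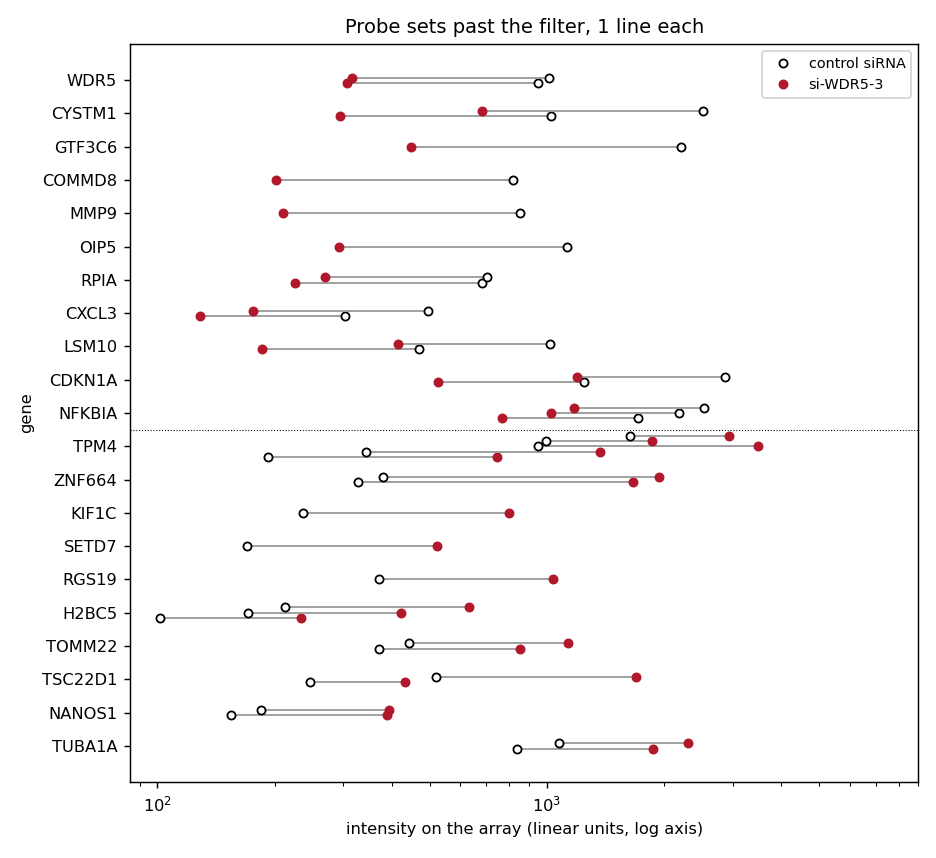
Intensity of every probe set past the filter (log axis, linear units) with control siRNA (open circles) and si-WDR5-3 (red circles), 1 line for each probe set. The 11 genes above the dotted line were lower and the 10 genes below it were higher, and each probe set shown moved in the direction of its gene.

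The genes under NF-kappaB control included several of the lower genes. NF-kappaB is a transcription factor that drives inflammatory genes and, in a feedback loop, the gene of its own inhibitor. Of 28 measured targets 9 were lower (32.1%, against 1.57% of all genes) and none was higher, with a list median of −0.37 against −0.00 for all genes. NFKBIA, the inhibitor IkappaB-alpha, was at 1711, 2180.0 and 2525 with control siRNA and 769, 1027 and 1175 with si-WDR5-3, with ratios from 0.449 to 0.471. CXCL3, a neutrophil chemokine, was at 303 and 496 with control siRNA and 129 and 176 with si-WDR5-3, with ratios of 0.425 and 0.355. The related chemokine CXCL2 was at 499 and 611 with control siRNA and 252 and 302 with si-WDR5-3 (0.505 and 0.494). TRAF1, an adaptor of TNF receptors, went from 331 to 141 (0.425), and CXCL8, interleukin 8, from 754 to 408 (0.541). All these genes had a value on every probe set used that was below control. Without the filter the list had 6 lower genes of 35, and its median was −0.07.

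The promoters of 4 of these genes are shown because they were lower together. Each sequence is the 140 bases before the start in GRCh38.p14, on the strand of the gene, from RefSeq. Capitals mark a kappaB motif or TATAAA on either strand.
CXCL2, chr4:74099196-74099335, minus strand: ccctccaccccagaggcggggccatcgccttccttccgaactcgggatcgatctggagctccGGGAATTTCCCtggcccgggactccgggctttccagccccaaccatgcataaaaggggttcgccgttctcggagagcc
CXCL3, chr4:74038690-74038829, minus strand: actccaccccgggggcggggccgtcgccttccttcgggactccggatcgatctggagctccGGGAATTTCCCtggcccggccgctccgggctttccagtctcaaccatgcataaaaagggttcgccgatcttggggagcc
CXCL8, chr4:73740429-73740568, plus strand: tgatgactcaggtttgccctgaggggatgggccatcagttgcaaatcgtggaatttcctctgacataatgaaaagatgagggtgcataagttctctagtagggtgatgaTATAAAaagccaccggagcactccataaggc
NFKBIA, chr14:35404750-35404889, minus strand: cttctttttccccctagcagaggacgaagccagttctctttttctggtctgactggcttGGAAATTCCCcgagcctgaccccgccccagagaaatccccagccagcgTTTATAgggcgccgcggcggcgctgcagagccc
CXCL2 and CXCL3 hold the same 11 letters, in which matches on both strands overlap. The window of CXCL8 holds TATAAA and no match to the kappaB pattern searched. It does hold ggaatttcc, letters that also lie within the motif of CXCL2 and CXCL3. The missing match depends on the pattern and does not show that CXCL8 lacks a kappaB site. Over the 300 bases in the table, 250 before and 50 after the start, a match was found in 6 of 8 lower targets with a promoter and in 12 of 23 measured targets. The share was 13.3% of 9368 promoters of measured genes, 12.4% of those of higher genes and 17.6% of those of lower genes. The kappaB search was chosen after the values were seen. The targets were listed as genes under NF-kappaB control, so a high share of matches among them follows from how the list was made. It says nothing on why they were lower. CACGTG was found in 10.1% of all promoters, 8.85% of those of higher genes and 8.50% of those of lower genes, and CCAAT in 36.5%, 37.6% and 31.4%. GGGCGG was found in 68.7% of all promoters, 78.3% of those of higher genes and 60.1% of those of lower genes, and TATAAA in 6.43%, 6.19% and 8.50%.

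Several genes induced by interferon were also lower. Such genes encode antiviral effectors and are switched on when cells sense foreign RNA or receive interferon. Of 41 measured genes 15 were lower (36.6%, against 1.57% of all), none was higher, and 40 were below control, with a list median of −0.44. IFI6, an antiviral membrane protein, was bright and went from 3641 to 1615 (0.444). ISG15, a ubiquitin-like modifier, went from 2544 to 1203 (0.473), and IFIT3, which binds viral RNA complexes, from 573 to 249.8 (0.436). IFI27 was at 321 and 1176 with control siRNA and 159 and 412 with si-WDR5-3 and IFITM1, which blocks viral entry, at 545 and 872 with control siRNA and 268 and 391 with si-WDR5-3. HLA-B, which presents peptides on the surface, was at 2451 and 2562 with control siRNA and 1331 and 1365 with si-WDR5-3 (0.543 and 0.533). It was the only lower gene of 18 in antigen processing (5.56%, against 1.57% of all genes). With si-WDR5-2 the interferon list stood above the shared control array, with a median of 1.79 and 40 of 41 genes higher (5.0% of all genes were). The filter used that array too. With the filter on the control and si-WDR5-3 arrays alone, 38 interferon genes passed it and 14 were lower. Without any filter 12 of 44 were lower.

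Several drivers of the cell cycle were lower. Of 17 measured cyclins and cyclin-dependent kinases 4 were lower (23.5%, against 1.57% of all genes) and none was higher, with a list median of −0.30. CCND1, the D-type cyclin that starts the G1 phase, was at 3615, 2648, 516 and 1033 with control siRNA and at 2018, 1579, 324 and 586 with si-WDR5-3 on its 4 probe sets. Its ratios lay between 0.558 and 0.629. CCNE1 and CCNE2, the cyclins of S phase entry, were at 0.528 (567 to 299) and 0.619 (604 to 374), and the mitotic cyclin CCNB2 was at 0.585 (1616 to 946). CCNA2 (0.821), CCNB1 (0.811) and CCNH (0.687) did not reach the limit. UHMK1, a kinase that acts on the CDK inhibitor p27, went from 313 to 137 (0.438). Probe sets left out by the filter were at 0.881 for CCNE1 (168.5 to 148.5), 0.721 for CCNE2 and 0.889 for UHMK1. With the filter on the control and si-WDR5-3 arrays alone 3 of 17 genes of the cyclin list were lower. Without any filter on dim probe sets 2 of 18 were lower.

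Few genes of mitosis or DNA replication passed the limit. Of 49 genes of mitosis 2 were lower (4.08%, against 1.57% of all genes), OIP5 and ESPL1 (separase, 0.598). Of these 49, 39 were below control, where 50.3% of all genes lay, with a list median of −0.21. Among 49 DNA replication genes RRM2, the ribonucleotide reductase subunit of S phase, was lower at 0.518, from 1213 and 1927 to 829.9 and 756. POLD4, the small subunit of polymerase delta, was higher at 1.59, with 3 probe sets between 1.57 and 1.65. RRM2 and POLD4 were the only 2 of this list past the limit (2.04% each way, against 1.57% lower and 2.34% higher over all genes). The list median was −0.07. With si-WDR5-2, against the same control array, 31 genes of mitosis and 22 of DNA replication were lower (3.35% of all genes were), and the medians were −0.67 and −0.54.

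CDKN1A, the inhibitor p21 that holds cyclin-dependent kinases in check, was lower together with the cyclins. It went from 1243 and 2862 to 527 and 1198, ratios of 0.424 and 0.419. GADD45A, a stress gene of the same p53 list, went from 2582 to 1403 (0.543), while XPC, a DNA damage sensor, was higher at 1.53. Of 30 measured p53 targets 2 were lower (6.67%, against 1.57% of all genes) and 1 was higher (3.33%, against 2.34%). The other 27 were within the limit and the list median was −0.03. Of 25 genes of the BCL2 family and its neighbours 2 were lower (8%, against 1.57% of all genes) and none was higher. They were BCL2A1, a survival factor, at 0.565 and the cochaperone BAG4 at 0.662, and without the filter none of 27 was lower. For MCL1, another survival factor, the 6 probe sets disagreed: their ratios were 0.534, 0.456, 0.853, 0.972, 0.939 and 0.684, and the brightest went from 2639 to 1204. Its median of 0.764 was within the limit.

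Several genes of the ribosome were lower. Of 65 measured proteins of the cytoplasmic ribosome 7 were lower (10.8%, against 1.57% of all genes), none was higher and 46 were below control, where 50.3% of all genes lay, with a list median of −0.19. RPS14 had 3 probe sets, of which 1 was bright and near control (11189 to 10686, ratio 0.955) and 2 were lower (3102 to 1016 and 5527 to 1941). RPL35A was at 2333 and 315 with control siRNA and 818 and 207 with si-WDR5-3 (0.351 and 0.658), and RPL36 lay between 0.507 and 0.679 on 3 probe sets. RPL13 went from 3092 to 1876 on 1 probe set (0.607). Ribosomal protein genes have many processed copies, so their probe sets may read more than 1 gene. When each gene was read by its brightest probe set, 3 of the list were lower.

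Most genes that build ribosomes were below control by less than the limit. Of 42 measured genes 35 were below control, where 50.3% of all genes lay, and the list median was −0.32. Of these 42, 3 were lower (7.14%, against 1.57% of all genes) and 1 was higher (2.38%, against 2.34%). DKC1, the pseudouridine synthase of ribosomal RNA, was at 804 and 2155 with control siRNA and 535 and 1377 with si-WDR5-3 (0.665 and 0.639). POLR1C, shared by RNA polymerases I and III, was at 0.643 and UTP15, a part of the small subunit processome, at 0.635. NOLC1, a nucleolar phosphoprotein, was higher on all 3 probe sets (1.65 to 1.82).

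**Figure D3:**
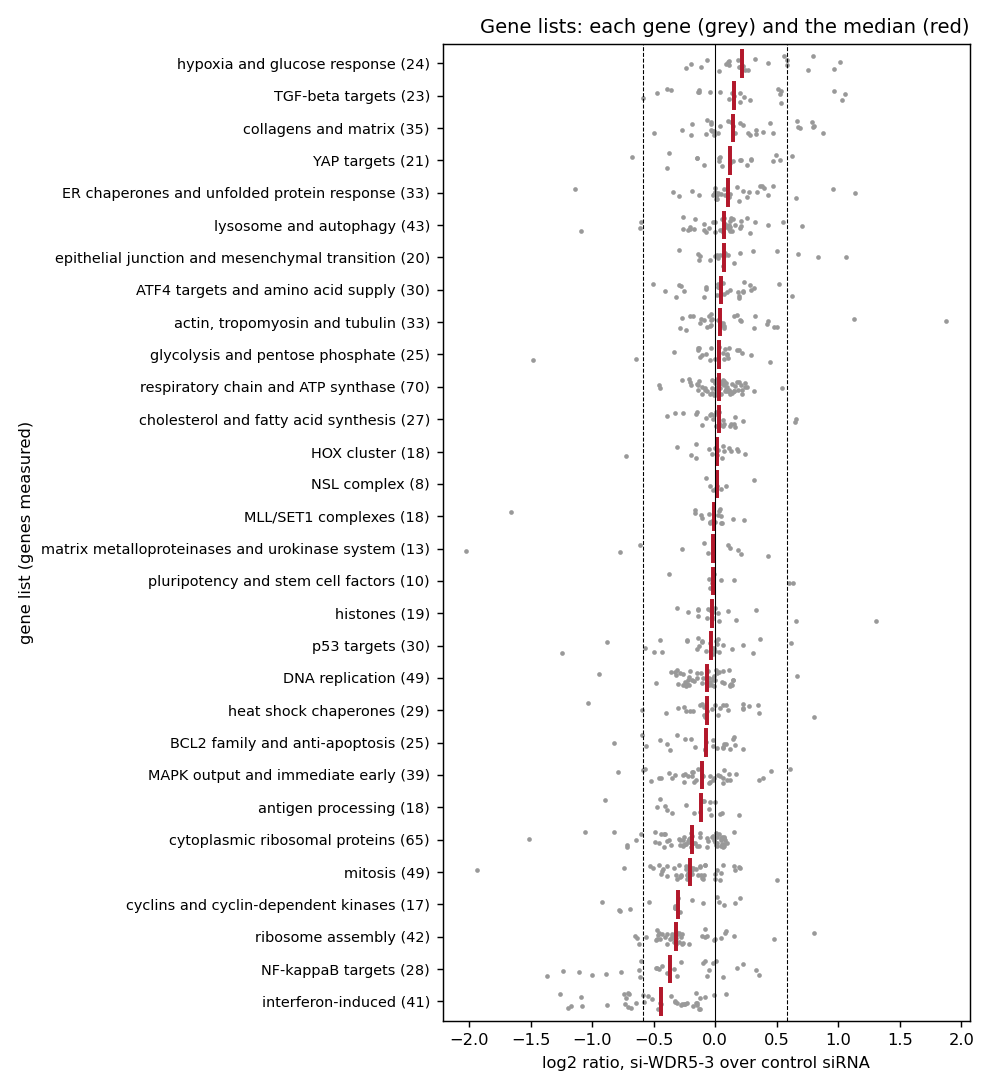
Log2 ratio of si-WDR5-3 over control siRNA for each measured gene of 30 gene lists (grey points), with the list median as a red bar and the number of genes in parentheses. Dashed lines are the 1.5-fold limits. The interferon, NF-kappaB, ribosome assembly and cyclin lists have the lowest medians, and hypoxia and glucose response has the highest of the lists drawn.

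The largest increases were in a zinc finger gene and a tropomyosin. ZNF664 was at 328 and 379.9 with control siRNA and 1666 and 1937 with si-WDR5-3 on its 2 probe sets past the filter. The ratios of 5.08 and 5.10 were the highest of all genes. Its 2 dimmer probe sets, at 77.7 and 75.7 with control siRNA, did not move (0.956 and 1.02). TPM4, which stabilises actin filaments, had 5 probe sets: they stood at 192, 947, 343, 1639.7 and 995 with control siRNA and at 746, 3476, 1367, 2933 and 1859 with si-WDR5-3. Its ratios were 3.88, 3.67, 3.99, 1.79 and 1.87, so every probe set was above control, by unequal amounts. TUBA1A, an alpha-tubulin, was at 1078 and 841 with control siRNA and 2299 and 1873 with si-WDR5-3 (2.13 and 2.23). KIF1C, a kinesin that carries vesicles along microtubules, went from 237 to 800.3 (3.38). TPM4 and TUBA1A were the only 2 higher genes of 33 actin, tropomyosin and tubulin genes (6.06%, against 2.34% of all genes). None of the 33 was lower, their median was 0.04, and by the brightest probe set of each gene 5 were higher.

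Further large increases lay in genes of varied function. RGS19, a brake on G protein signalling, went from 371 to 1036 (2.79). TOMM22, the receptor of the mitochondrial import pore, was at 444 and 371 with control siRNA and 1133 and 852 with si-WDR5-3 (2.55 and 2.30). TSC22D1, a leucine zipper protein induced by TGF-beta, was at 519 and 247 with control siRNA and 1689.8 and 433 with si-WDR5-3. Its 2 ratios past the filter, 3.26 and 1.75, were far apart, as were those of PPP1R3C, a glycogen-targeting subunit of protein phosphatase 1 (3.24 and 1.73). A dimmer probe set of TSC22D1, at 126 with control siRNA, did not move (0.997). ICMT, which methylates prenylated proteins such as RAS, was at 275 and 258 with control siRNA and 735 and 468 with si-WDR5-3 (2.68 and 1.82). AHNAK2 was between 2.06 and 2.22 on 3 probe sets, CLIP1, a microtubule plus-end protein, was at 1.89 and 2.11, and SLC9D1 was at 1.99 and 2.35.

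Histone genes and a histone methyltransferase gene held some of the higher values. H2BC5, a gene of histone H2B, was at 213, 171 and 101 with control siRNA and 630.0, 423 and 233 with si-WDR5-3, ratios of 2.96, 2.48 and 2.30. The H2BC5 probe set at 101 was below the filter level with control siRNA and passed it through the siRNA arrays. H2BC12 went from 835 to 1314 (1.57). They were the 2 higher genes of 19 measured histones (10.5%, against 2.34% of all genes), and none was lower. Without the filter 1 of 34 histones was higher. SETD7, a lysine methyltransferase, went from 170.2 to 523 (3.07). A dimmer probe set of this gene, near the floor of the array at 63.3, was at 1.09. Of 18 measured HOX genes, known targets of MLL complexes in leukaemia, 1 was lower (5.56%, against 1.57% of all genes). This was HOXB2 (1377 to 835, 0.606), and the median of the HOX list was 0.02.

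Several matrix genes were higher. Of 35 measured collagens and matrix genes 7 were higher (20%, against 2.34% of all) and none was lower, with a list median of 0.14. The fibril collagen gene COL5A1 was at 154, 235, 160.2 and 153 with control siRNA and 309.8, 271, 241 and 352 with si-WDR5-3 on 4 probe sets (2.01, 1.15, 1.51 and 2.30). The basement membrane collagens COL4A1 and COL4A5 were at 1.72 and 1.73, the transmembrane collagen COL13A1 was between 1.5 and 1.91 on 4 probe sets and the matricellular protein POSTN was at 1.84. These genes were dim: COL4A1 stood at 218 and POSTN at 129 with control siRNA. The POSTN probe set was below the filter in control cells and passed it through the other arrays, and the 4 dimmer ones were between 1.07 and 1.41. Without the filter 2 of 47 were higher and the median was 0.02. Of 13 metalloproteinase and urokinase genes, MMP9, PLAU (urokinase, 0.528 to 0.725 on 3 probe sets) and its receptor PLAUR (0.604 to 0.743 on 5) were lower (23.1%, against 1.57% of all genes) and none was higher. The median of this list was −0.02.

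The TGF-beta list had 3 higher genes of 23 (13%, against 2.34% of all genes) and none lower. Without the filter 2 of 28 were higher. GAS1, a membrane protein of growth arrest, was at 155 and 183 with control siRNA and 285 and 427 with si-WDR5-3 (1.84 and 2.33), and SEMA3A, a secreted guidance cue, at 284 and 365 with control siRNA and 594 and 728 with si-WDR5-3 (2.09 and 1.99). TGFBR1, a receptor of TGF-beta, went from 346 to 674 (1.95). Dimmer probe sets below the filter were at 0.981 for GAS1 and at 1.14 and 1.05 for TGFBR1. Among 20 genes of epithelial junctions and mesenchymal transition 3 were higher (15%, against 2.34% of all genes) and none was lower. They were the surface sialoprotein CD24 (143 to 299), the E-protein TCF3 (1.48 to 2.85 on 4 probe sets) and fibronectin, FN1 (1.31 and 1.93). The CD24 probe set was below the filter level in control cells and passed it through the siRNA arrays. The dimmer probe sets of FN1 were between 0.965 and 1.30. Without the filter 2 of 31 genes of this list were higher. YAP1, the coactivator of the Hippo pathway, was at 1.54. Its 4 bright probe sets were between 1.5 and 1.67, and the 2 dimmer ones were at 1.03 and 1.02. CCN1, a matricellular target of YAP1, was lower, from 855 and 641 to 515 and 417 (0.603 and 0.651). Of 21 genes of the YAP list 1 was higher and 1 was lower (4.76% each, against 2.34% and 1.57% of all genes), and its median was 0.12.

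Several genes of the response to hypoxia and glucose were higher. Of 24 measured genes 5 were higher (20.8%, against 2.34% of all genes), none was lower and 20 were above control, with a list median of 0.21. CA12, a carbonic anhydrase at the cell surface, was at 1273, 2179, 478, 2149 and 159 with control siRNA and at 2650.1, 4277, 778, 4194 and 215 with si-WDR5-3. ARRDC3, a protein of the arrestin family, was at 144, 182 and 178 with control siRNA and 215, 410.4 and 358 with si-WDR5-3 (1.5, 2.26 and 2.01). NDRG1, a growth regulator induced by low oxygen, was at 1.73, with 5 probe sets between 1.5 and 2.47. The brightest, which had the highest ratio, went from 1882 to 4654. DDIT4, an inhibitor of mTORC1, went from 635 to 1069.6 (1.69) and IGFBP3 was at 1.5. Probe sets of ARRDC3 (144), NDRG1 (132) and IGFBP3 (132) were below the filter level with control siRNA and passed it through the siRNA arrays. By the brightest probe set of each gene 8 of the list were higher. In glycolysis and the pentose phosphate pathway 2 of 25 genes were lower (8%, against 1.57% of all genes) and none was higher. They were RPIA and GLO1, which detoxifies methylglyoxal (0.612 to 0.702 on 4 probe sets), and the list median was 0.03.

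Of 10 measured stem cell factors 2 were higher (20%, against 2.34% of all genes) and none was lower, and without the filter 1 of 17 was higher. SOX9, a factor of progenitor cells, went from 934 to 1446 (1.55) and ALDH1A1, a retinal dehydrogenase, from 218 to 331 (1.52). SOX2 was at 0.982 and POU5F1 at 0.972 on 1 probe set each, and NANOG had none past the filter. The list had a median of −0.02. The respiratory chain and ATP synthase, with 70 genes measured, had none past the limit and a median of 0.03. Its ratios ranged from 0.728 for NDUFS4 to 1.45 for NDUFA8, both subunits of complex I.

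Ratios to the shared control array were put side by side for both siRNAs, and their differences were not tested. In each pair of values si-WDR5-3 comes first. WDR5 was at 0.317 and 0.215, and MMP9 at 0.246 and 0.340, so both were lower on both arrays. GTF3C6 was at 0.203 and 1.33, CYSTM1 at 0.279 and 1.17, and COMMD8 at 0.246 and 0.793. EMC2 (0.314 and 0.934), LSM10 (0.401 and 0.884) and PUDP (0.427 and 0.987) were likewise past the limit with si-WDR5-3 and within it with si-WDR5-2. So were TRAF1 (0.425 and 0.982) and CXCL2 (0.499 and 1.23) among the lower genes and SETD7 (3.07 and 1.20) and TGFBR1 (1.95 and 1.22) among the higher ones. NANOS1, an RNA-binding repressor of translation, was at 185 and 154 with control siRNA and 392 and 389 with si-WDR5-3, a ratio of 2.32, and at 0.990 with si-WDR5-2. ZNF252P, a zinc finger pseudogene, was at 2.65 and 1.13. Its control intensity of 147.9 was just below the filter level, and its 4 dimmer probe sets were between 0.992 and 1.08 with si-WDR5-3. With 1 array for each siRNA, a difference between the siRNAs and a difference between 2 cultures cannot be told apart.

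**Figure D4:**
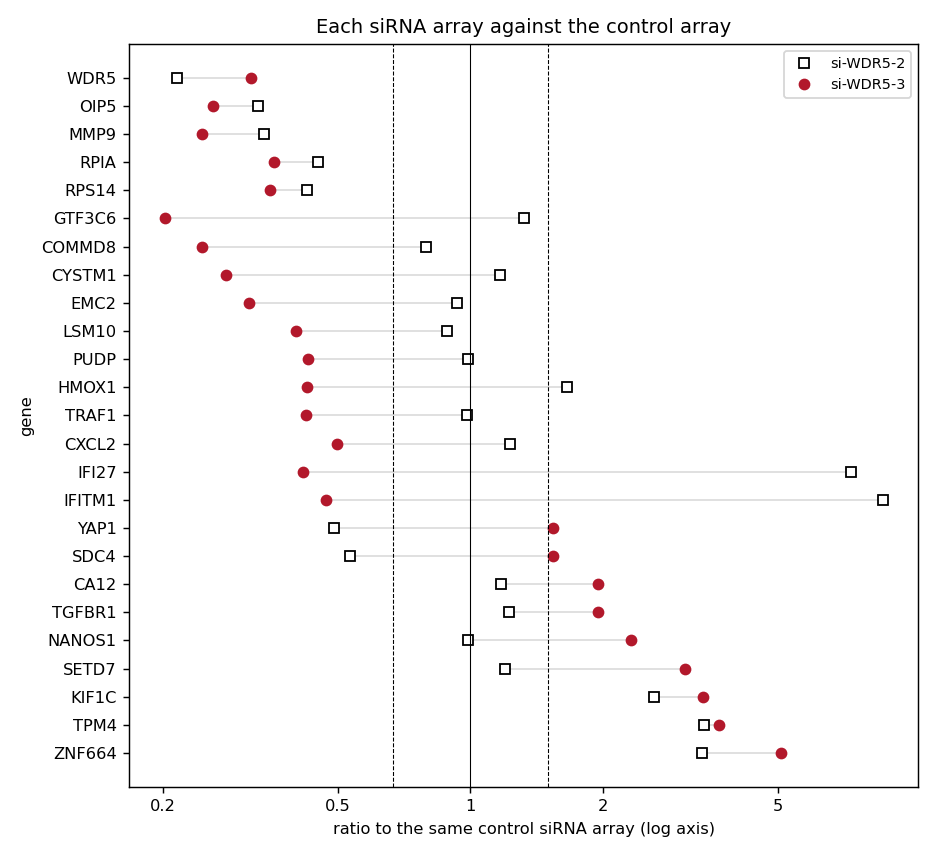
Ratio to the control siRNA array (log axis) of 25 genes with si-WDR5-3 (red circles) and si-WDR5-2 (open squares), 1 array each, so no error bars can be drawn. Solid and dashed lines mark a ratio of 1 and the 1.5-fold limits. WDR5 is low with both, GTF3C6 and CYSTM1 are low with si-WDR5-3 alone, and IFI27 and IFITM1 lie on opposite sides.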

How the data were processed

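RNA of UM-UC-3 cells was measured on 3 Affymetrix PrimeView arrays, of which the control siRNA and si-WDR5-3 arrays are compared here. The deposited values are linear intensities that came from GCOS 1.4, per the submitters' processing notes. How the authors corrected background, summarised probes and normalized is not given in the sources used here. No scans or detection calls were used. Since the array medians were close, no further scaling was applied.

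Log2 ratios to the control array were taken without an offset for probe sets at or above the 50th percentile of mean log2 intensity. Gene names come from the platform annotation: 45064 probe sets have 1 symbol, 1756 several and 2473 none. Probe sets with 1 symbol gave the gene values, as medians. With 1 array for each condition there is no p-value, and the number of arrays limits the precision. The counting was tested on simulated data with planted changes larger than the limit and independent noise for each probe set. That checks the counting alone. It does not measure differences between cultures or how sure a 1.5-fold call is.

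The members, the 33 gene lists, the named genes and the alternatives were chosen with earlier results of these data known. Named genes were the 15 largest rises and 15 largest falls with all of several probe sets past the 1.5-fold limit, the 5 largest each way with 1 probe set, up to 5 of each list past the limit or up to 2 of a list with none past it, the 8 largest differences between the siRNAs each way, and genes the study names for these cells. Not all are printed. Single probe sets picked out in the text, the promoters and the kappaB search were chosen after the values were seen. Promoters and miRNAs are from RefSeq (GRCh38.p14), and 9368 of 11501 genes had a promoter. Alternatives were other filters, an offset of 84.8, the brightest probe set, median centring, quantile normalization and other limits. Python 3 with numpy and pandas was used.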

Additional observations from a re-analysis of the deposited data

Results flagged for a closer look

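Of the named genes, 14 were past the 1.5-fold limit in opposite directions with the 2 siRNAs, and no list median was. The differences were not tested, since each rests on 1 array for each siRNA and both ratios share the control array. In the interferon system the ratios with si-WDR5-3 and si-WDR5-2 were 0.642 and 8.30 for BST2, 0.543 and 7.51 for CCL5, 0.597 and 7.98 for CMPK2, 0.417 and 7.35 for IFI27, 0.444 and 2.25 for IFI6, 0.604 and 8.72 for IFIT2, 0.436 and 5.90 for IFIT3, 0.469 and 8.66 for IFITM1, 0.473 and 3.38 for ISG15, and 0.612 and 7.47 for OASL. CMPK2, at 174 with control siRNA and 104.0 with si-WDR5-3, passed the filter through the si-WDR5-2 array, where it is high, and did not pass it on the other arrays alone. In the same order, HLA-B was at 0.538 and 2.40, and HMOX1 was at 0.427 and 1.66. The other direction was held by SDC4, a syndecan of the cell surface, at 1.54 and 0.533, and by YAP1 at 1.54 and 0.490.

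Probe sets with no gene symbol or with several were outside the gene values. Of 1951 past the filter, 1106 without a symbol and 845 with several, 12 were at least 2 times the control with si-WDR5-3 and 4 at most 0.5 times, and their ratios ranged from 0.270 to 4.85. The lowest was the probe set shared by WDR5 and WDR5CP.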

How the results depend on the processing

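No paired analysis was possible because each condition has 1 array, and for the same reason no replicate could be left out. Against 269 higher and 181 lower genes, an offset of 84.8 before log2 gave 147 and 106. A 2-fold limit gave 37 and 36, and a limit of 0.32 on the log2 scale 965 and 772. Genes with several probe sets alone, an alternative chosen after the data were seen, numbered 142 and 93. The other 8 settings, among them no filter (183 and 131), quantile normalization (257 and 196) and the filter on the control and si-WDR5-3 arrays alone (272 and 181, also chosen after the data were seen), stayed within 1.5 times. The log2 ratio of WDR5 was −1.66, and −1.43 with the offset. Of 112 named genes past the limit, 86 were still past it with no filter, 89 with the offset, 106 with the brightest probe set and 111 with quantile normalization, and no called gene changed sign under any of these. Without the filter, which adds dim probe sets, the collagens had 2 higher genes in place of 7, NF-kappaB targets 6 lower genes in place of 9 and cyclins 2 in place of 4. Higher genes went from 3 to 1 among ER chaperones, from 2 to 1 among histones and stem cell factors, and from 1 to 0 among p53, MAPK, YAP and ATF4 targets. Lower genes went from 2 to 1 in mitosis, from 2 to 0 in the BCL2 family and from 1 to 0 among MAPK targets. They also went from 15 to 12 among interferon genes, from 7 to 6 among ribosomal proteins and from 3 to 2 among lysosome genes. The TGF-beta list and the list of epithelial junctions went from 3 to 2 higher genes, and the urothelial line markers from 0 to 1. The cause was not tested. The lowest intensities, 46.2 to 46.8 on the arrays compared, limit how far a dim gene could fall. Array control probes were not analysed here.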

Other observations

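Genes of chaperones and of the lysosome held a few further differences. CCT7, a subunit of the chaperonin that folds actin and tubulin, went from 2647 to 1291 (0.488) and its partner CCT4 was between 0.623 and 0.717 on 4 probe sets, while LONP1, a mitochondrial protease, was higher on all 3 (1.69 to 1.77). The other CCT subunits of the list were within the limit, from 0.756 for CCT2 to 1.21 for CCT5. The heat shock list of 29 genes had a median of −0.07. In it 1 gene was higher (3.45%, against 2.34% of all genes) and 2 were lower (6.90%, against 1.57%). In the endoplasmic reticulum list of 33 genes, GANAB, the glucosidase II subunit that trims N-glycans, was at 140.1, 394, 304, 150.2 and 609.5 with control siRNA and 225, 865, 752, 293 and 1699 with si-WDR5-3, and the folding factors MESD (1.95, 2.36 and 1.05) and CRELD2 (1.57) were also higher. LMAN1, a cargo receptor to the Golgi, was lower at 0.455, with 4 probe sets between 0.368 and 0.850. The endoplasmic reticulum list thus had 3 higher genes (9.09%, against 2.34% of all genes) and 1 lower (3.03%, against 1.57%). Its median was 0.10. OGFR, the opioid growth factor receptor, was within the limit at 1.13, although 1 of its 5 probe sets went from 223.9 to 534.6.

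Of 43 lysosome and autophagy genes 1 was higher (2.33%, against 2.34% of all genes), the protease CTSB (1.59 to 2.53 on 4 probe sets). Lower were 3 (6.98%, against 1.57%): SQSTM1, the autophagy receptor p62 (0.634 to 0.724 on 5), ATG12 (0.660) and ATP6V1C1. In cholesterol and fatty acid synthesis 2 of 27 genes were higher (7.41%, against 2.34% of all genes). These were the sterol genes INSIG1 (1.89, 1.58 and 1.36) and PMVK (1.41, 1.56 and 1.70). In MAPK output DUSP16, a phosphatase of stress kinases, was at 1.52 and SPRY4, a feedback inhibitor, at 0.579. The other 37 of 39 genes were within the limit. Higher and lower genes were each 2.56% of this list, against 2.34% and 1.57% of all genes. The ATF4 list, genes of amino acid supply, had a median of 0.05. It had 1 higher gene of 30 (3.33%, against 2.34% of all genes), PSPH (1.54). With si-WDR5-2, against the same control, it had a median of 0.66 and 17 higher genes (5.0% of all genes were higher). SPANXB1, a cancer-testis gene of the X chromosome, was at 697, 2829.9 and 1377 with control siRNA and 1218, 4852 and 2443 with si-WDR5-3 (1.75, 1.71 and 1.77).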
